A study of Mus musculus with 24 samples.

Results

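The glutathione and antioxidant enzymes described here were the genes named as a glutathione S-transferase, a microsomal glutathione S-transferase, a glutathione peroxidase, a peroxiredoxin, a superoxide dismutase, a thioredoxin reductase, glutamate-cysteine ligase, glutathione synthetase, glutathione reductase or catalase. The gene table held 50 such symbols, and 49 of these genes had a probe on the array. These 49 genes were detected by 66 of the 56605 unique probes, and each gene is represented by its brightest probe. Of the 49 genes, 43 had a mean signal intensity of at least 50. *Gpx5*, *Gpx6*, *Gsta2*, *Gstp3*, *Gstt4* and *Mgst2* were dimmer than that, and *Gsta1* had no probe.

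Glutathione is a small peptide made in neurons and glia in 2 steps, the first by glutamate-cysteine ligase and the next by glutathione synthetase. Glutathione peroxidases spend it to reduce peroxides, glutathione S-transferases couple it to reactive compounds, and glutathione reductase restores it with NADPH. Superoxide dismutases turn superoxide into hydrogen peroxide. Catalase removes this peroxide in peroxisomes, and peroxiredoxins remove it in several compartments. Thioredoxin and thioredoxin reductase are the electron source of most peroxiredoxins. The brain uses much oxygen and keeps little catalase, and astrocytes hold much of its glutathione.

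Hippocampi of 48 male Swiss-Webster mice were analyzed on 24 two-color microarrays on 3 slides. The mice were given as 12 weeks old, and habituation to single cages followed before the treatment. All mice were housed singly and drank water with 0.45% hydroxypropyl-β-cyclodextrin during a dark phase of 12 h, and for 24 of them this water also held corticosterone at 100 µg/mL. Mice were killed during the first, the fifth or the ninth hour of the light phase, the resting period of mice, with 8 control and 8 corticosterone-treated mice at each hour. RNA of each mouse was labelled alone, and Swiss-Webster is an outbred stock, so the mice of a group differ in genotype.

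Each array held a control mouse in the Cy3 and a corticosterone-treated mouse in the Cy5 channel, with no dye swap. A constant dye difference of a probe therefore cannot be told apart from an effect of corticosterone within an hour. It cancels where that effect is compared between hours, and control mice of different hours were all labelled with Cy3. Median intensities centered on 99 in the Cy3 and 156 in the Cy5 channel over the 24 arrays, with 0 saturated spots. The markers of hippocampal neurons *Prox1*, *Neurod6*, *Zbtb20*, *Wfs1* and *Lct* had mean intensities between 2584 and 12689. In whole hippocampus, fewer cells of a type and less RNA per cell cannot be told apart.

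Most antioxidant genes did not pass the test after overnight corticosterone, and those that did moved both ways by small amounts. Catalase fell at all 3 hours, and the kappa-class transferase *Gstk1* rose at all 3 hours. The mu-class transferases *Gstm1* and *Gstm3* and the ligase subunit *Gclc* rose at the fifth and the ninth hour. The peroxidase *Gpx7* and the peroxiredoxin *Prdx1* fell at the first and the fifth hour, when the secreted peroxidase *Gpx3* rose.

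At the first hour, 7 of the 49 genes had an adjusted p under 0.05 in limma's separate channel test (14.3%, against 17.5% of all probes). Of these, 3 rose and 4 fell, beside 8.85% and 8.67% of all probes. At the fifth hour, 15 genes passed (30.6%, against 18.1% of all probes), of which 6 rose and 9 fell, beside 8.62% and 9.47% of all probes. At the ninth hour, 8 genes passed (16.3%, against 14% of all probes), of which 5 rose and 3 fell, beside 7.01% and 6.97% of all probes. The share of these genes was thus near that of the array at the first and the ninth hour and above it at the fifth. Without slide 1, slide 2 and slide 3, the count of the fifth hour was 6, 9 and 2, while between 7.31% and 12.7% of all probes passed in these fits of fewer arrays. The median log2 fold change of the 49 genes was -0.01, -0.04 and -0.02 at the 3 hours, while that of all probes lay at 0.00 each time.

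**Figure D1:**
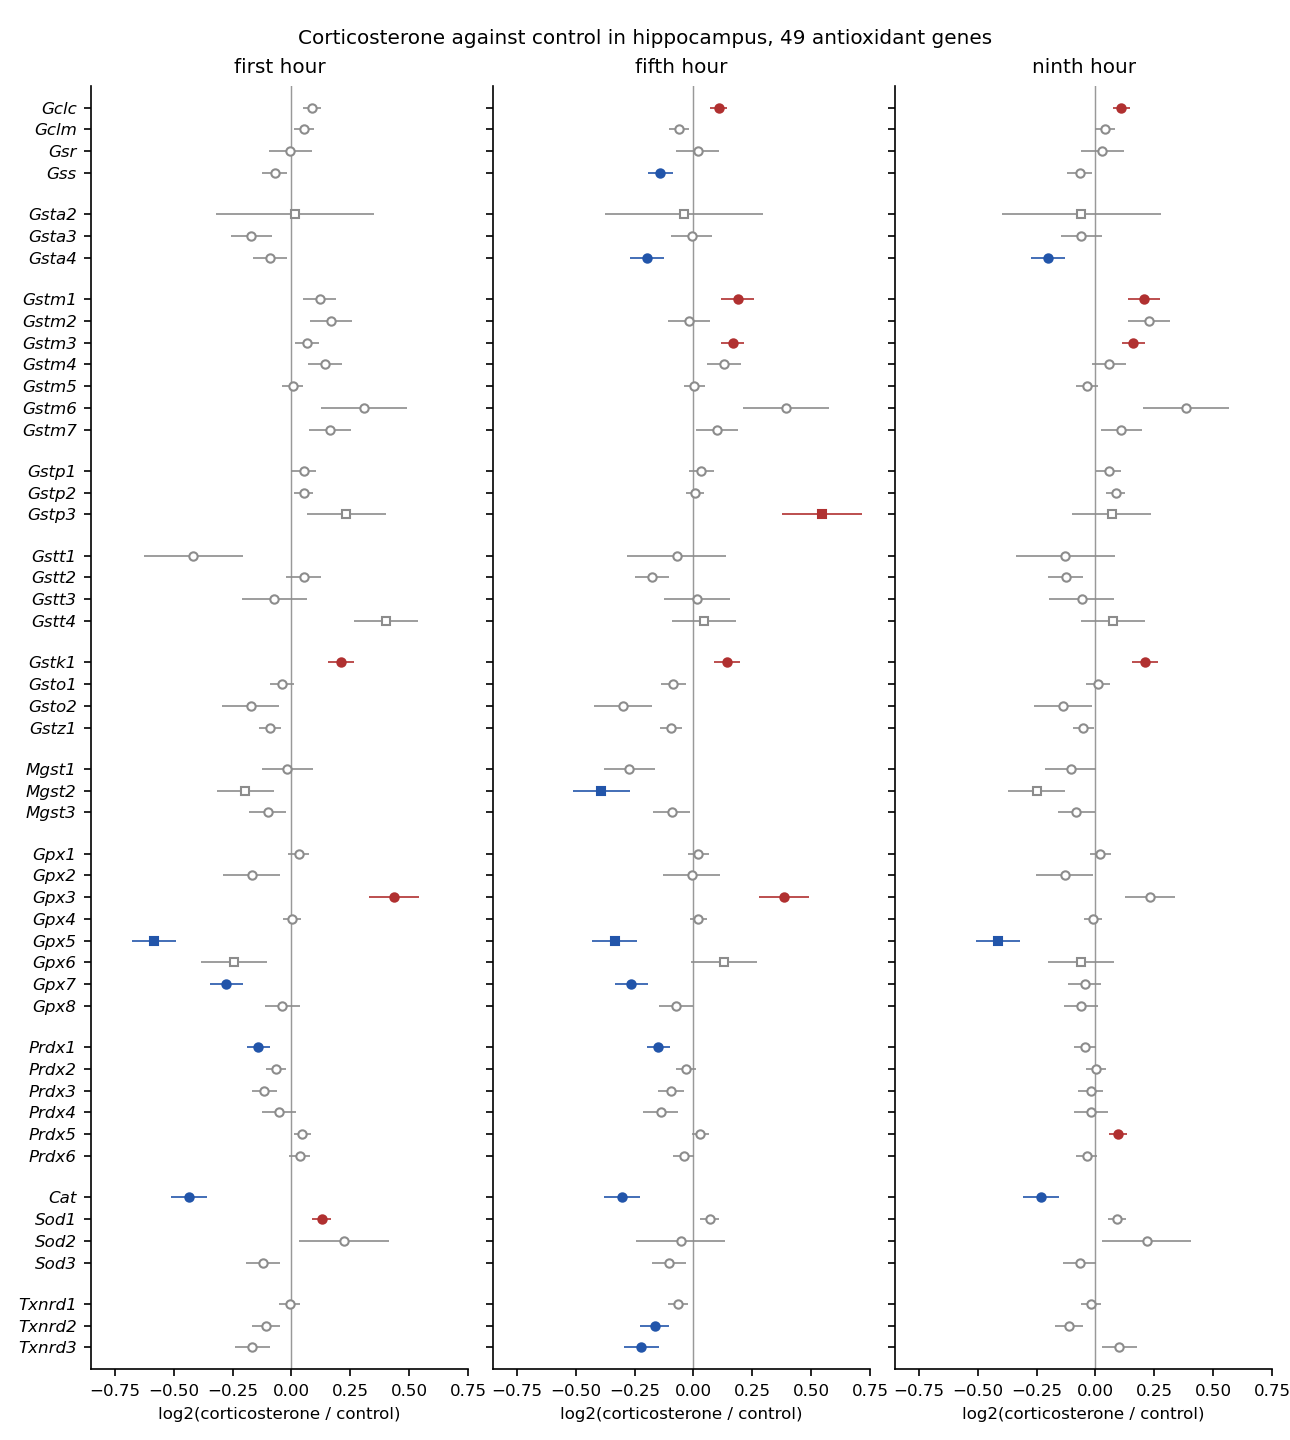
Log2 fold change of corticosterone-treated over control mice (x axis) for each of the 49 genes (rows, grouped by class) at the 3 hours, with bars of 1 SE from the fit without offset. Filled symbols have an adjusted p under 0.05, squares mark the 6 genes with a mean intensity under 50, and most bars of the brighter genes lie within 0.25 of 0.

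Among the 43 brighter genes, 19 had a 95% interval of the log2 fold change between -0.25 and 0.25 at each hour. They were *Gclc*, *Gclm*, *Gss*, *Gsr*, *Gpx1*, *Gpx4*, *Gpx8*, *Gstm5*, *Gsto1*, *Gstp1*, *Gstp2*, *Gstz1*, *Prdx1*, *Prdx2*, *Prdx3*, *Prdx5*, *Prdx6*, *Sod1* and *Txnrd1*, and *Gclc*, *Gss*, *Prdx1*, *Prdx5* and *Sod1* passed the test at some hour all the same. Over the 3 hours, 32 of the 49 genes never passed. Neither this count nor that of the intervals was made over all probes, so nothing particular to these genes is read from them.

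The treatment was visible in the same tissue. *Tsc22d3*, *Sgk1*, *Fkbp5* and *Per1*, which the glucocorticoid receptor is known to induce, were all higher in corticosterone-treated mice at the first hour, with log2 fold changes of 0.93, 0.71, 0.60 and 0.27. At the ninth hour, *Tsc22d3* and *Fkbp5* were lower in corticosterone-treated mice, with log2 fold changes of -0.58 and -0.28. The effect of corticosterone on all 4 of these genes was lower at the ninth than at the first hour, with an adjusted p under 0.05 for the change.

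**Figure D2:**
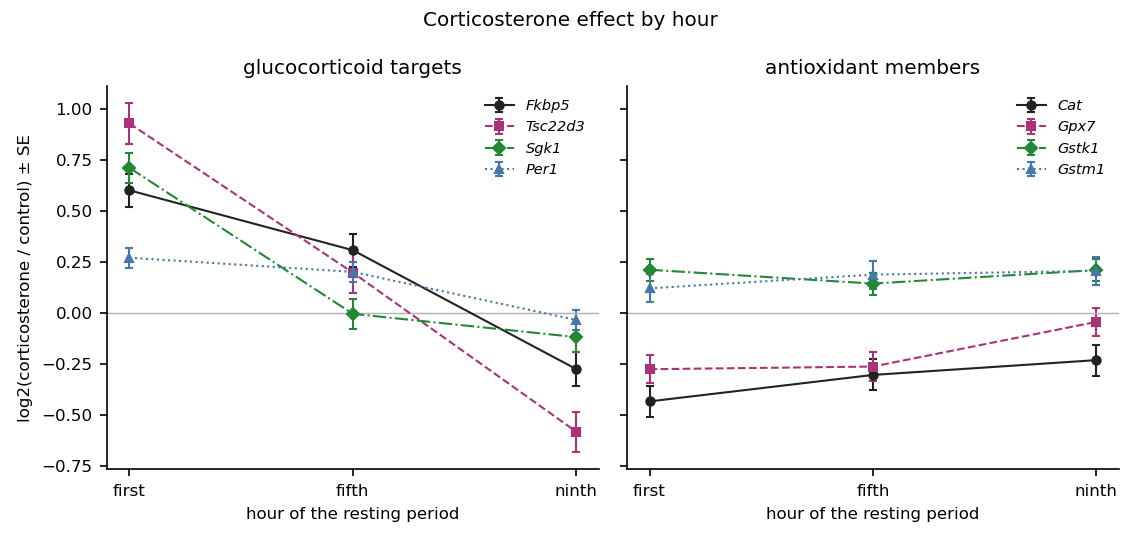
Log2 fold change of corticosterone-treated over control mice with bars of 1 SE (y axis) at each hour (x axis), for 4 known glucocorticoid targets (left) and for *Cat*, *Gpx7*, *Gstk1* and *Gstm1* (right). The targets went from between 0.27 and 0.93 to between -0.58 and -0.03, while *Cat* stayed below 0 and *Gstk1* and *Gstm1* above 0 at each hour.

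The promoters of 6 genes that the results turn on are shown, each from 250 bases before to 50 bases after a start site of the transcript, read 5′ to 3′ on the strand of the gene, from RefSeq (GRCm38.p6). *Cat* and *Gstk1* are the brighter genes that passed at every hour, *Prdx1* and *Sod1* passed at the first hour in opposite directions, and *Gstm1* and *Gstm3* are mu-class genes of chromosome 3 that rose together. Capitals mark 2 motifs searched on both strands, which do not overlap in these windows. The first is TGACNNNGC, the core of the antioxidant response element bound by Nrf2, and the other is AGAACA, an arm of the glucocorticoid response element.
Cat, chr2:103485104-103485403, minus strand: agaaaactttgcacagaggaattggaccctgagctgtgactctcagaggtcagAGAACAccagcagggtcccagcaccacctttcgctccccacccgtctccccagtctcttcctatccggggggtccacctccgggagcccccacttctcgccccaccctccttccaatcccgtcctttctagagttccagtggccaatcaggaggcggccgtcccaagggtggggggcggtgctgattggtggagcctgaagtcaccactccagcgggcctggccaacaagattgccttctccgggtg
Gstk1, chr6:42245685-42245984, plus strand: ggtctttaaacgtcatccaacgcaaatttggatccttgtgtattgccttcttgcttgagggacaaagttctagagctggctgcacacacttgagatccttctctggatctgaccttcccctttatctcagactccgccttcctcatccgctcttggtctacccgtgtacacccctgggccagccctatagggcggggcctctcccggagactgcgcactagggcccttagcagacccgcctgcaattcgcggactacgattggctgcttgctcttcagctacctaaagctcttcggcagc
Prdx1, chr4:116685349-116685648, plus strand: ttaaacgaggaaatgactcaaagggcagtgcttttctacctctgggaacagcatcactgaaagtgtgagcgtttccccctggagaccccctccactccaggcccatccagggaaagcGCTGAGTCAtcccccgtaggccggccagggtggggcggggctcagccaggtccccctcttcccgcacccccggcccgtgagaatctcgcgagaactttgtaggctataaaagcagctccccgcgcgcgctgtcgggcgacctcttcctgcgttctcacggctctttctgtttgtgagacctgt
Sod1, chr16:90220512-90220811, plus strand: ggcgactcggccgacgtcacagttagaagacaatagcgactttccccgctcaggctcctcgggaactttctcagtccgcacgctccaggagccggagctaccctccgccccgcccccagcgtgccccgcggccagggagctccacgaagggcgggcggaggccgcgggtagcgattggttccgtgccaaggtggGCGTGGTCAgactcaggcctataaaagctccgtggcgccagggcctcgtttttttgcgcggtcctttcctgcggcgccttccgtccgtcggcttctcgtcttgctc
Gstm1, chr3:108017924-108018223, minus strand: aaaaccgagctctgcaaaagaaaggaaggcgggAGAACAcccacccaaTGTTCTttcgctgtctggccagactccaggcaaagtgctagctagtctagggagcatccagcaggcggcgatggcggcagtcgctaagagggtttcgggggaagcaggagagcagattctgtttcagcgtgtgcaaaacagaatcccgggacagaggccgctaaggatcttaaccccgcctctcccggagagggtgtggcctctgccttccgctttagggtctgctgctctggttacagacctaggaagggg
Gstm3, chr3:107969125-107969424, minus strand: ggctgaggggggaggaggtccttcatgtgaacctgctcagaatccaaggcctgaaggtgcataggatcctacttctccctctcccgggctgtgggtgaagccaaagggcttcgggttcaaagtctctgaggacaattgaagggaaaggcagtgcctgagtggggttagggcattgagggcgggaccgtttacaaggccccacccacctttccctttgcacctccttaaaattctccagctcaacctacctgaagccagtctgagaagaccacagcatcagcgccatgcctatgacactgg

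The TGACNNNGC core lay in the windows of *Prdx1* and *Sod1*, starting 133 and 56 bases before the start site. It was found in the windows of 8 of the 43 genes with an entry, which were *Gclm*, *Gsta3*, *Gstm5*, *Gstm7*, *Mgst1*, *Prdx1*, *Sod1* and *Txnrd1*. Of their 57 windows, 14% held it, against 12.4% of 32841 promoters of the same length. *Prdx1* and *Sod1* are the pair of these 8 genes that passed at the brightest probe, *Prdx1* lower and *Sod1* higher. The AGAACA arm lay in 17.5% of the windows of these genes and in 19% of all promoters. The *Cat* window held it once, and the *Gstm1* window shown held it on both strands, while the window of the other *Gstm1* start site in the table held neither. The full element, which has both arms at its own fixed spacing, was in no window of these genes and in 3 of all promoters. A match of letters is a description only. *Gclc*, *Gsr*, *Gsta4*, *Gstt2*, *Prdx6* and *Sod3* had no entry.

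*Cat*, catalase, which splits hydrogen peroxide in peroxisomes, had the smallest adjusted p among the brighter genes. At the first hour its signal intensity was 1371, 1503 and 1711 (lowest, median and highest) in the 8 control mice and 833, 1143 and 1265 in the 8 corticosterone-treated mice. Every treated mouse lay below every control mouse. Groups that did not overlap, in either direction, were found for 1.59% of all probes and, of the 49 genes, for *Cat* and the dim *Gpx5*. At the fifth and the ninth hour the groups overlapped for each of the 49 genes, while 1.04% and 1.64% of all probes had groups apart. The log2 fold change was -0.43 ± 0.08 (SE), with an adjusted p of 2.63e-05 and a lower value in the treated mouse on all 8 arrays.

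At the fifth hour, *Cat* was at 1304, 1583 and 1737 in control and at 1067, 1198 and 1633 in treated mice. At the ninth hour, it was at 1467, 1591 and 2123 in control and at 1186, 1442 and 1569 in treated mice. The groups overlapped at both of these hours, and the treated mouse was lower on 7 and on 6 of 8 arrays, with log2 fold changes of -0.30 ± 0.08 (adjusted p = 0.00238) and -0.23 ± 0.08 (adjusted p = 0.0247). The lower level of treated mice was seen within each slide at every hour, from -0.10 on slide 1 at the fifth hour to -0.50 on slide 3 at that hour. The call of the fifth hour was lost without slide 3 (adjusted p = 0.171), and that of the ninth hour without slide 1 (adjusted p = 0.292) or slide 2 (adjusted p = 0.0782).

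Markers of other cells moved at the same hour as *Cat*. Of 5 endothelial markers, *Cldn5*, *Flt1* and *Kdr* were lower and *Pecam1* was higher at the first hour. *Flt1* and *Tie1* were lower and *Pecam1* higher at the fifth, and *Flt1* was lower and *Cldn5* and *Kdr* were higher at the ninth. For *Cldn5* and *Kdr* the effect of the ninth hour lay above that of the first (by 0.60, adjusted p = 2.53e-05, and by 0.57, adjusted p = 0.00122). At the first hour their summed intensity was 9351 to 11635 in control and 6460 to 8743 in treated mice. The groups did not overlap in this sum, nor at the fifth hour (9622 to 12108 and 7658 to 9528), and they overlapped at the ninth. Of 6 microglial markers, *Aif1*, *Cx3cr1* and *P2ry12* were lower at the first hour (-0.44, -0.20 and -0.49), *Aif1* and *P2ry12* at the fifth and *P2ry12* at the ninth, and none was higher. Their summed intensity overlapped at each hour (14358 to 17137 in control and 12539 to 16714 in treated mice at the first). Of 6 oligodendrocyte markers, 2 were higher and 2 lower at each hour. The higher ones were *Mbp* and *Mobp*, and *Mag* was among the lower ones (-0.27, -0.42 and -0.30 at the 3 hours). The summed intensity of the 6 overlapped between groups at each hour. Its median was 66998, 69392 and 69454 in control and 59631, 56798 and 57206 in treated mice. Of 7 neuronal markers, none passed at the first hour, *Rbfox3* and *Snap25* were higher at the fifth and *Rbfox3* at the ninth. None of the 4 measured red cell markers passed at any hour, and their sum overlapped at each. None of these lists had a marker at 0, and their part in the change of *Cat* was not tested.

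**Figure D3:**
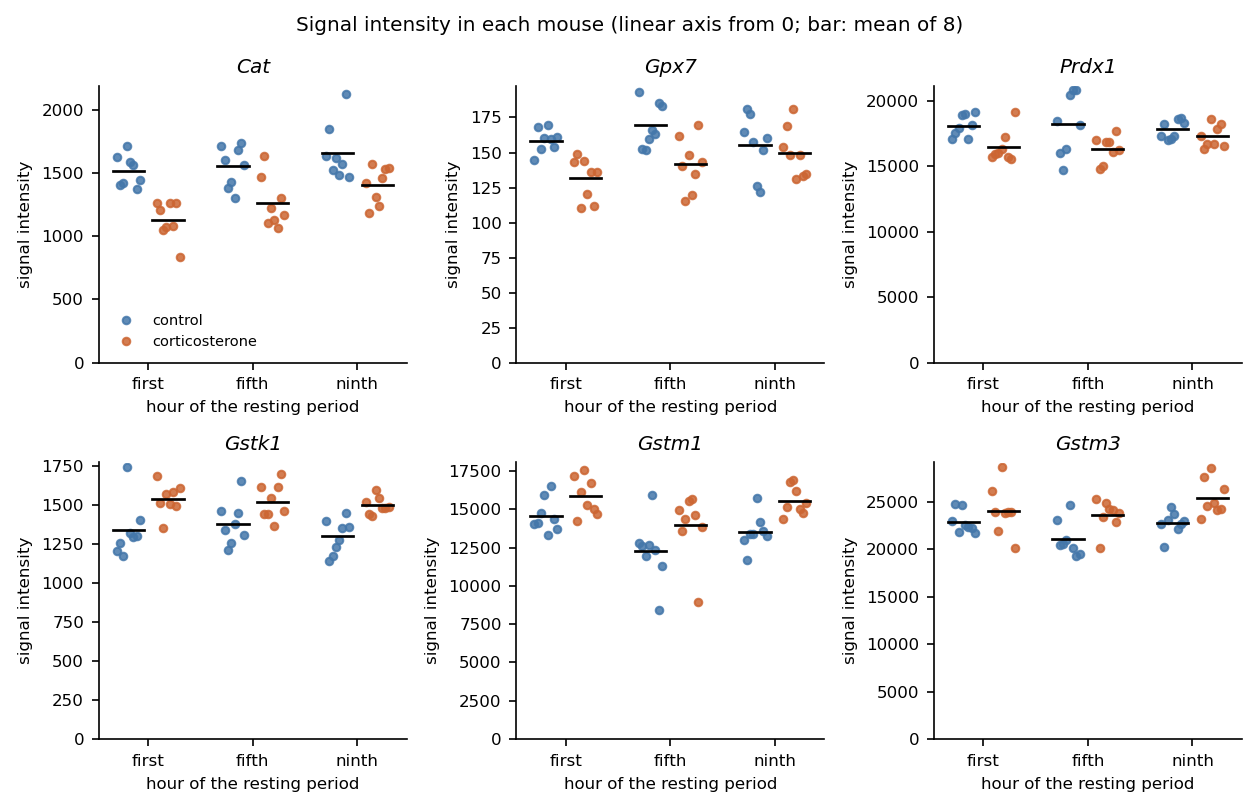
Signal intensity (y axis, linear from 0) in each mouse at the 3 hours (x axis) for *Cat*, *Gpx7*, *Prdx1*, *Gstk1*, *Gstm1* and *Gstm3*, with control mice in blue, corticosterone-treated mice in orange and a bar at the mean of 8 mice. The groups are apart for *Cat* at the first hour and overlap in every other panel and hour.

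The superoxide dismutases supply the peroxide that catalase and the peroxidases remove. *Sod1*, the cytosolic enzyme, was at 33887, 35989 and 37037 in control and at 36781, 38954 and 44964 in treated mice at the first hour. The treated mouse was higher on all 8 arrays although the ranges overlapped, with a log2 fold change of 0.13 ± 0.04 (adjusted p = 0.00961). This call was lost without slide 1 (adjusted p = 0.0661) or slide 2 (adjusted p = 0.0818). At the fifth and the ninth hour, *Sod1* had log2 fold changes of 0.07 and 0.09 that did not pass. The mitochondrial *Sod2* and the secreted *Sod3* did not pass at any hour.

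Among the glutathione peroxidases, 5 of 8 genes did not pass at any hour. *Gpx1*, the main cytosolic form, and *Gpx4*, which reduces lipid peroxides in membranes, had log2 fold changes between -0.01 and 0.03 over the 3 hours and an SE of 0.04. *Gpx4* was at 18756, 20201 and 20925 in control and at 19099, 20146 and 20870 in treated mice at the first hour. *Gpx2*, *Gpx6* and *Gpx8* were the others without a call.

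*Gpx7*, a peroxidase of the endoplasmic reticulum, was lower in treated mice on all 8 arrays at the first and at the fifth hour. It was at 144, 160 and 169 in control and at 111, 136 and 149 in treated mice at the first hour, and at 152, 164 and 193 against 115, 142 and 170 at the fifth. The log2 fold changes were -0.28 ± 0.07 (adjusted p = 0.00366) and -0.26 ± 0.07 (adjusted p = 0.00446). At the ninth hour the groups lay together, at 122, 159 and 181 in control and 131, 148 and 181 in treated mice (log2 fold change -0.04 ± 0.07). The calls were lost without slide 3 (adjusted p = 0.0913 and 0.0822), and without slide 2 that of the first hour was lost (adjusted p = 0.0677).

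*Gpx3*, the secreted peroxidase of plasma, was among the larger increases. It was at 87.7, 121 and 174 in control and at 119, 166 and 228 in treated mice at the first hour. It was at 121, 135 and 177 in control and at 137, 185 and 218 in treated mice at the fifth. The ranges overlapped and the treated mouse was higher on 7 and on 6 of 8 arrays, with log2 fold changes of 0.44 ± 0.11 (adjusted p = 0.00324) and 0.39 ± 0.11 (adjusted p = 0.00667). *Gpx3* had a ninth-hour log2 fold change of 0.23 ± 0.11 that did not pass (adjusted p = 0.119), although the treated mouse was higher on all 8 arrays. The first-hour call was lost without slide 3 (adjusted p = 0.116), and the fifth-hour call without slide 1 or 3 (adjusted p = 0.107 and 0.147). Choroid plexus, which lies beside the hippocampus, had no marker that passed at any hour among 5 measured, of which *Otx2* and *Folr1* were dim. Their summed intensity overlapped between groups at each hour, with up to 1967 in control and 2760 in treated mice at the ninth. The part of choroid plexus in the *Gpx3* values was not tested. *Gpx5*, a peroxidase of the epididymis, passed as lower at each hour, but its probe was not well above background on any array in either channel, so no fold is given.

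The peroxiredoxins reduce peroxides with thioredoxin. *Prdx1*, of the cytosol, was at 17066, 18013 and 19158 in control and at 15548, 15988 and 19099 in treated mice at the first hour. The ranges overlapped while the treated mouse was lower on all 8 arrays (log2 fold change -0.14 ± 0.05, adjusted p = 0.0212). At the fifth hour the log2 fold change was -0.15 ± 0.05 (adjusted p = 0.0136) and at the ninth -0.04 ± 0.05. A dimmer probe of *Prdx1* gave -0.22 and -0.24 at the first and the fifth hour, both with an adjusted p under 0.05, and at the first hour its groups did not overlap (4607 to 5353 in control and 3933 to 4584 in treated mice). The third probe did not pass, with -0.14, -0.20 and -0.20. The brightest probe lost its first-hour call without slide 1, 2 or 3 (adjusted p = 0.0829, 0.158 and 0.0653), and its fifth-hour call without slide 1 or 3 (adjusted p = 0.0540 and 0.366).

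*Prdx5*, found in mitochondria and peroxisomes, rose at the ninth hour at both of its probes, by 0.10 and 0.11 on the log2 scale (adjusted p = 0.0399 and 0.0412). Its brightest probe was at 37618, 40408 and 45334 in control and at 41339, 43087 and 45228 in treated mice at that hour, with ranges that overlapped. Its call was lost without slide 1, 2 or 3 (adjusted p = 0.0575, 0.169 and 0.264). The other 4 peroxiredoxins, *Prdx2*, *Prdx3*, *Prdx4* and *Prdx6*, did not pass at any hour, with log2 fold changes from -0.14 to 0.03.

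Thioredoxin reductases are selenoproteins that keep thioredoxin reduced. *Txnrd2*, the mitochondrial form, was lower in treated mice on all 8 arrays at the fifth hour, at 1299, 1871 and 2114 in control and 1128, 1727 and 1784 in treated mice (log2 fold change -0.17 ± 0.06, adjusted p = 0.0358). The ranges overlapped, and the call was lost without slide 1 or 2 (adjusted p = 0.187 and 0.104), with an offset of 0 (0.0505) and with Aquantile normalization (0.100). A dimmer probe of *Txnrd2* gave the other sign at each hour (0.13, 0.18 and 0.16, none of which passed), and the mean of the probes was 0.00864 at the fifth hour, so the direction of *Txnrd2* depends on the probe. *Txnrd3*, which joins a glutaredoxin domain to the reductase, was lower at the fifth hour as well (-0.22 ± 0.07, adjusted p = 0.0223), at 235, 298 and 357 in control and 205, 255 and 347 in treated mice. *Txnrd3* did not pass at the ninth hour, at 0.10 ± 0.07, and its fifth-hour call was lost without slide 2 or 3 (adjusted p = 0.2005 and 0.154).

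*Txnrd1*, the cytosolic reductase, depended on the probe. Its brightest probe had log2 fold changes of -0.01, -0.06 and -0.02, none with an adjusted p under 0.05. Its other probe, of mean intensity 1998, was lower in treated mice at each hour, with log2 fold changes of -0.26, -0.35 and -0.39 (adjusted p = 0.0224, 0.00169 and 0.000954). At the ninth hour this probe was at 2000, 2141 and 2275 in control and at 1224, 1783 and 1861 in treated mice, with no overlap. The 2 probes were annotated to transcripts of the same gene, and which transcripts each one binds was not analysed here.

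**Figure D4:**
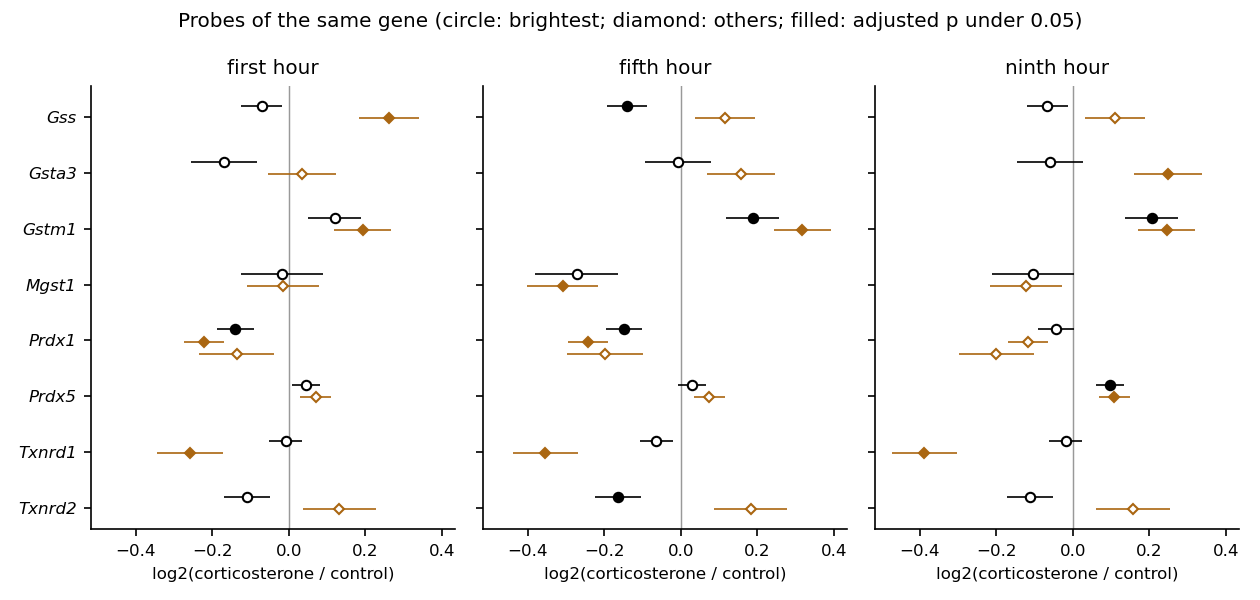
Log2 fold change of corticosterone-treated over control mice (x axis, bars of 1 SE) for each probe of 8 genes that have several probes (rows), at the 3 hours. Circles are the brightest probe, diamonds the others, and filled symbols have an adjusted p under 0.05. The probes lie together for *Gstm1*, *Prdx1* and *Prdx5* and apart for *Txnrd1*, *Txnrd2* and *Gss*.

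Of the 4 genes of glutathione synthesis and reduction, *Gclc* and *Gss* passed at some hour. *Gclc*, the catalytic subunit of glutamate-cysteine ligase and the enzyme that limits the rate of synthesis, was at 2963, 3208 and 3355 in control and at 3296, 3435 and 3572 in treated mice at the ninth hour. The treated mouse was higher on all 8 arrays, with a log2 fold change of 0.11 ± 0.04 (adjusted p = 0.0216). The value of the fifth hour was also 0.11 ± 0.04 (adjusted p = 0.0221), and that of the first hour 0.09 ± 0.04 did not pass (adjusted p = 0.0622). The call of the ninth hour was lost without slide 1 (adjusted p = 0.253) or slide 2 (adjusted p = 0.105), and that of the fifth without slide 1, 2 or 3 (adjusted p = 0.0869, 0.142 and 0.105).

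*Gclm*, the modifier subunit, had log2 fold changes of 0.05, -0.06 and 0.04, none of which passed, and those of *Gsr*, glutathione reductase, were -0.01, 0.02 and 0.03. *Gss*, glutathione synthetase, was lower at the fifth hour (-0.14 ± 0.05, adjusted p = 0.0415), at 1469, 1719 and 1934 in control and 1314, 1525 and 1755 in treated mice. A dimmer probe of *Gss* gave the other sign, with 0.26 at the first hour (adjusted p = 0.0143) and 0.12 at the fifth (adjusted p = 0.307). The direction of *Gss* therefore depends on the probe, and the call of its brightest probe was lost without slide 1 or 3 (adjusted p = 0.238 and 0.244).

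The glutathione S-transferases form the largest group, in 8 classes with the microsomal enzymes counted as 1. *Gstk1*, the kappa-class enzyme of mitochondria and peroxisomes, was at 1172, 1296 and 1742 in control and at 1354, 1538 and 1685 in treated mice at the first hour. It was at 1143, 1314 and 1449 in control and at 1432, 1485 and 1596 in treated mice at the ninth. A single control mouse at the first hour lay above all treated mice, and at the ninth hour the ranges overlapped, with the treated mouse higher on 7 and on 8 of 8 arrays. The log2 fold changes were 0.21 ± 0.05 (adjusted p = 0.00268), 0.14 ± 0.05 at the fifth hour (adjusted p = 0.0416) and 0.21 ± 0.05 (adjusted p = 0.00382). The first-hour call was lost without slide 1 or 3 (adjusted p = 0.0841 and 0.0684), the fifth-hour call without slide 1, 2 or 3 (adjusted p = 0.106, 0.143 and 0.170), and the ninth-hour call without slide 1, on which 4 of its 8 arrays lay (adjusted p = 0.303).

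The mu class, known from astrocytes, has 7 genes here in 1 cluster of chromosome 3, and near-identical sequences can share probes. *Gstm1* was at 11718, 13361 and 15719 in control and at 14348, 15275 and 16917 in treated mice at the ninth hour. *Gstm3* was at 20232, 22833 and 24530 in control and at 23226, 24724 and 28573 in treated mice. Both were higher in the treated mouse on all 8 arrays at that hour with ranges that overlapped, by 0.21 ± 0.07 (adjusted p = 0.0277) and 0.16 ± 0.05 (adjusted p = 0.0138).

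At the fifth hour *Gstm1* and *Gstm3* rose by 0.19 ± 0.07 (adjusted p = 0.0389) and 0.17 ± 0.05 (adjusted p = 0.00842). At the first hour they did not pass, with 0.12 ± 0.07 and 0.07 ± 0.05. A second probe of *Gstm1* passed at all 3 hours, with 0.19, 0.32 and 0.25 (adjusted p = 0.0499, 0.00116 and 0.0147). Without slide 1, the ninth-hour calls of both genes were lost (adjusted p = 0.591 and 0.258), and without slide 3 both fifth-hour calls were lost (adjusted p = 0.0935 and 0.342). The fifth-hour call of *Gstm1* was also lost without slide 1 or 2 (adjusted p = 0.126 each), and the ninth-hour call of *Gstm3* without slide 3 (adjusted p = 0.0698). *Gstm2*, *Gstm4*, *Gstm5*, *Gstm6* and *Gstm7* did not pass. Of 7 astrocyte markers, *Aldh1l1* was higher and *Aqp4* lower at each hour, *Gja1* was lower at the fifth and the ninth hour, and their summed intensity overlapped between groups at each hour. The part of astrocytes in the mu-class values was not tested.

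In the alpha class, *Gsta4*, which couples glutathione to products of lipid peroxidation, was lower in treated mice at the fifth hour (-0.20 ± 0.07, adjusted p = 0.0404) and at the ninth (-0.20 ± 0.07, adjusted p = 0.0421). It was at 1087, 1392 and 1633 in control and 1030, 1189 and 1406 in treated mice at the ninth hour, with much overlap. The fifth-hour call was lost without slide 1, 2 or 3 (adjusted p = 0.145, 0.0564 and 0.201) and the ninth-hour call without slide 1 or 3 (adjusted p = 0.585 and 0.124), and within slide 2 the ninth-hour value was 0.02. *Gsta2* and *Gsta3* did not pass, although a second probe of *Gsta3* gave 0.25 at the ninth hour (adjusted p = 0.0485). *Gstp1* and *Gstp2* of the pi class lay between 0.01 and 0.09 on the log2 scale and did not pass, and *Gstp3*, which passed at the fifth hour, was well above background in 1 of 48 channels, so no fold is given.

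None of the theta, omega or zeta genes, nor *Mgst1* and *Mgst3* of the microsomal class, passed between treatments at the brightest probe. Other probes gave a call for *Mgst1* at the fifth hour (-0.31, adjusted p = 0.0121), where its brightest probe gave -0.27 (adjusted p = 0.059), and for a probe of *Gsto2* at the first hour that was well above background on 1 of 24 arrays in the control channel. *Mgst2* passed as lower at the fifth hour, at 29.9, 36.8 and 53.5 in control and 17.99, 30.6 and 34.9 in treated mice, and its probe exceeded the background clearly in 2 control mice and 1 treated mouse of that hour.

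Whether the effect of corticosterone differed between hours was tested directly. With the ninth hour set against the first, 0 of the 49 genes had an adjusted p under 0.05 in limma's separate channel test (0.827% of all probes did). An unadjusted p under 0.05 was found for 2 of the 49 genes, beside 4053 of all 56605 probes. The 2 genes were *Txnrd3* (0.27, unadjusted p = 0.0107) and *Gpx7* (0.23, unadjusted p = 0.0230), and *Cat* had a change of 0.20 ± 0.11 (unadjusted p = 0.0581). From the first to the fifth and from the fifth to the ninth hour, 0 genes passed as well, beside 0.0389% and 0.083% of all probes. In these comparisons 2 and 3 genes had an unadjusted p under 0.05, beside 2530 and 2934 of all probes. A call at 1 hour and not at another, as for *Gpx7*, is therefore not a shown difference between hours. For 23 of the 43 brighter genes, the 95% interval of the change in effect, ninth against first hour, lay between -0.25 and 0.25. The share of all probes with such an interval was not computed.

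In control mice, 1 of the 49 genes passed at its brightest probe when the ninth hour was set against the first, beside 0.537% of all probes. *Gstt2*, a theta-class transferase, was at 42.6, 62.1 and 75.4 at the first, at 59.9, 73.0 and 82.0 at the fifth and at 72.0, 82.1 and 87.6 at the ninth hour. Its level rose by 0.43 ± 0.09 on the log2 scale from the first to the ninth hour (adjusted p = 0.00749), although the ranges overlapped slightly. The difference was 0.27 within slide 1, 0.27 within slide 2 and 0.72 within slide 3, and the call was lost without slide 1 (adjusted p = 0.236) or slide 3 (adjusted p = 0.294). In treated mice of these hours *Gstt2* was at 52.1, 62.7 and 73.9, at 53.3, 65.1 and 78.7 and at 66.3, 74.8 and 86.7, and its corticosterone effect did not pass at any hour. A dimmer probe of *Gstz1*, the zeta-class enzyme, was also higher in control mice of the ninth than of the first hour (0.18 ± 0.05, adjusted p = 0.0461), while its brightest probe gave 0.14 ± 0.05 and did not pass (adjusted p = 0.215). At the brightest probe no gene passed between the first and the fifth hour (0.0053% of all probes did) or between the fifth and the ninth (0.0336%). In each comparison 4 of the 49 genes had an unadjusted p under 0.05, beside 4078 and 3587 of all 56605 probes.

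*Gstt1*, *Sod2* and *Gstm6* differed more between mice than between groups. The pooled SD within the 6 groups was 0.53, 0.48 and 0.45 on the log2 scale, above that of 98.9%, 98.2% and 97.6% of 32033 probes with a mean intensity of at least 50. The median over such probes was 0.18, and that over the 43 brighter antioxidant genes was 0.16. These 3 were the brighter antioxidant genes above the 95th percentile. None of them passed at any hour, and the SE of their corticosterone effect was 0.18 to 0.21.

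*Gstt1*, a theta-class transferase, was at or below 448 in 36 mice and at or above 582 in 12 mice, with no mouse between. The 12 mice were 6 control and 6 treated mice, found at all 3 hours. *Sod2* was at or below 4805 in 9 mice and at or above 5674 in 39, with a next gap between 7426 and 8212. *Gstm6* was at or above 1738 in 4 mice and at or below 1242 in the other 44, and its second probe had an SD of 0.19 and a correlation of 0.38 with the first over the mice. Across the 24 arrays, the deviations of the control and the treated mouse from their group means correlated at 0.69 for *Gstt1*, 0.55 for *Sod2* and 0.39 for *Gstm6*, beside a median of 0.38 over all probes of this brightness. A correlation above 0.5 was found for 16 of the 43 brighter antioxidant genes (37.2%) and for 33.3% of all probes of this brightness. The 2 mice of an array share a spot and a hybridization. Control mice were brothers of treated mice, although whether an array paired brothers was not given in the sources used here.

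**Figure D5:**
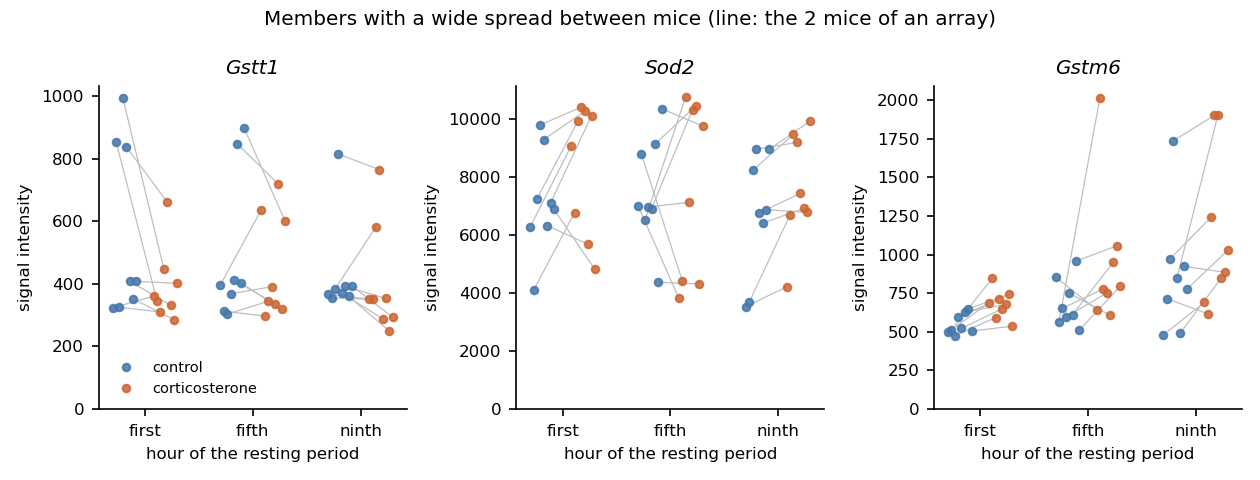
Signal intensity (y axis, linear from 0) of *Gstt1*, *Sod2* and *Gstm6* in each mouse at the 3 hours (x axis), control mice in blue and corticosterone-treated mice in orange, with a line joining the 2 mice of an array. *Gstt1* has 12 mice at or above 582 and 36 at or below 448, in both treatments and at all hours.

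Genes around these enzymes were listed by their role. Their counts stand beside 8.85%, 8.62% and 7.01% of all probes that were higher and 8.67%, 9.47% and 6.97% that were lower at the first, the fifth and the ninth hour, and with lists of 8 to 17 genes nothing is read from the counts. For the supply of cysteine and the turnover of glutathione, 17 genes were measured, of which 3, 4 and 3 were higher and 1, 1 and 0 were lower at the first, the fifth and the ninth hour. *Cbs*, which feeds homocysteine into cysteine synthesis, was higher in treated mice at each hour, with log2 fold changes of 0.36, 0.41 and 0.27. *Slc1a1*, the neuronal transporter that takes up cysteine and glutamate, was higher at each hour too (0.19, 0.19 and 0.16), and *Slc7a11*, the cystine antiporter, was lower at the first and the fifth hour (-0.27 and -0.26). *Oplah*, which recycles oxoproline to glutamate, was higher by 0.39 at the first hour and by 0.18 at the fifth, and its effect fell by 0.27 from the first to the ninth hour (adjusted p = 0.0422).

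Of 9 genes of the NADPH supply, 2, 2 and 1 were higher and 2, 2 and 0 lower at the 3 hours. *Idh2*, the mitochondrial isocitrate dehydrogenase that makes NADPH, was higher at each hour by 0.66, 0.68 and 0.42, the largest values of these 9 genes. *Idh1*, its cytosolic counterpart, was lower at the first hour (-0.20, adjusted p = 0.0342). *Pgd* of the pentose phosphate pathway was higher at the first and the fifth hour by 0.15 and 0.12, while *G6pdx*, its first enzyme, did not pass.

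Of 12 thioredoxins, glutaredoxins and related genes, 4, 0 and 1 were higher and 2, 2 and 2 lower at the 3 hours. *Txnip*, the inhibitor of thioredoxin, was higher by 0.53 at the first hour, and its effect fell by 0.72 to the ninth hour, where it was at -0.19 and did not pass. *Glrx3* and the methionine sulfoxide reductase *Msrb2* were lower at each hour, between -0.15 and -0.13. *Txn1*, *Txn2* and *Srxn1* did not pass.

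Of 8 genes of selenoprotein synthesis, *Selenop*, which carries selenium to the peroxidases and thioredoxin reductases, was higher at each hour (0.44, 0.33 and 0.20), and the other 7 did not pass. Of 9 oxidant response genes, 1, 1 and 1 were higher and 1, 1 and 0 lower. *Nqo1*, *Hmox1* and the regulators *Nfe2l2* and *Keap1* did not pass at any hour, *Blvrb* was lower at the first and the fifth hour (-0.22 and -0.26), *Fth1* was higher at the first and the ninth hour (0.14 and 0.11), and *Hmox2* was higher at the fifth (0.19). The medians of the 5 lists lay between -0.07 and 0.08 at each hour, beside 0.00 for all probes.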

How the data were processed

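RNA of single hippocampi was hybridized to 24 Agilent two-color arrays, each with a control (Cy3) and a corticosterone-treated mouse (Cy5). The authors deposited scanner output, in which the intensity of each spot is the mean and its background the median of the pixels, with flags for outlier, saturated and well above background spots, and a table of normalized log2 ratios. From the intensities, the background was corrected (normexp), arrays were normalized by loess within and by quantile between arrays, outlier spots were set missing and spots of a probe were averaged. The 77 probes missing on an array were fitted without it. The separate channel model of limma (version 3.58.1, R version 4.3.3, intraspot correlation 0.279) was fitted to all 56605 unique non-control probes, with Benjamini-Hochberg adjustment over all of them. P-values came from the fit with an offset of 50, and log2 fold changes, SE and intensities from a fit with an offset of 0, because the offset shrinks the changes of dim probes. The log2 ratios deposited by the authors had a median absolute difference of 0.0101 from those computed here with an offset of 50. SystematicName accessions named 34566 probes through the RefSeq gene table. The methods were tested on simulated data.

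Members, lists and rules were chosen with earlier results of these data known. Values of single mice are given by rule for genes with an adjusted p under 0.05, a mean intensity of at least 50 and the same direction on all 8 arrays of an hour, and for those that passed between hours. By this rule 10 genes are named (*Cat*, *Gclc*, *Gpx7*, *Gstk1*, *Gstm1*, *Gstm3*, *Gstt2*, *Prdx1*, *Sod1* and *Txnrd2*). Other genes with values of single mice (*Gpx3*, *Gpx4*, *Gsta4*, *Gss*, *Mgst2*, *Prdx5*, *Txnrd3*), the dimmer probes of *Prdx1* and *Txnrd1* and the genes of wide spread were chosen after their values were seen. The mice are separate animals, so p-values measure the spread between animals, and the number of arrays limits the precision. Per the methods, a group held brothers from several litters. Which mice shared a litter was not given in the sources used here, so the model has no term for it and p-values may be too small. The alternatives were other background, normalization, offset and filter settings, the deposited log2 ratios, a test on log ratios, the slide as a block, leaving out each slide and the mean of all probes of a gene. Keeping the outlier spots was added after seeing the data. The count and the summed intensity of the oligodendrocyte marker list are not reported here.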

Additional observations from a re-analysis of the deposited data

Results flagged for a closer look

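In 9 of 90 groups of 8 mice, over the 15 brighter genes with a call, 1 mouse lay farther from its nearest neighbor than Dixon's 95% critical value allows, and chance gives this in about 1 of 20 groups. The lowest corticosterone-treated mouse had a *Cat* intensity of 833.395 at the first hour, with the next at 1046. The highest treated mouse had a *Gclc* intensity of 4072.59 at the fifth hour. The highest control mouse had a *Gstk1* intensity of 1742.05 at the first hour. At the fifth hour the lowest treated mouse had a *Gstm1* intensity of 8964.43 (next 13574), and the lowest for *Gstm3* was at 20176.9. The highest treated mouse had a *Sod1* intensity of 44964 at the first hour. For *Txnrd2*, a treated mouse stood apart at each hour, the highest at 2147.99 at the first, the lowest at 1127.79 at the fifth and the highest at 1866.5 at the ninth hour.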

How the results depend on the processing

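The counts of genes called depended most on the slides. The 7 genes of the first hour became 4 without slide 1, 2 or 3 (11.6%, 8.05% and 9.41% of all probes passed in these fits). The 15 of the fifth hour became 6, 9 and 2 (7.31% to 12.7%). The 8 of the ninth hour became 0 without slide 1, which held 4 of its 8 arrays, 7 without slide 2 and 5 without slide 3 (3.3%, 8.44% and 8.77%). Calls over the whole array thus fell as well. The control difference of *Gstt2* was lost without slide 1 or slide 3 (0 genes, and 0.00883% and 0.238% of all probes). Fewer arrays enter these fits, and no further cause was tested. Under the other settings the counts lay between 7 and 9, between 10 and 16 and between 6 and 10, and the comparisons of the corticosterone effect between hours gave 0 genes under every setting run. For the 15 brighter genes with a call, 70 recomputed values lost and 14 gained a call, and 8 of the values within a single slide, which have no test, moved by more than the spread between replicates. Of the comparisons that had passed, 2 values turned direction, and among those that had not passed, some small differences also changed sign. *Txnrd2* at the fifth hour was 0.00864 as the mean of its probes, and *Gsta4* at the ninth hour was 0.0164 within slide 2. *Cat* at the first hour passed under every setting run. With all arrays kept, an offset of 0 ended fifth-hour calls of *Gstk1*, *Gstm1*, *Txnrd2*, *Gss* and *Gsta4* and ninth-hour calls of *Gsta4* and *Prdx5*, with adjusted p from 0.0505 to 0.0722. Aquantile ended fifth-hour calls of *Gstm1*, *Txnrd2*, *Txnrd3*, *Gss* and *Gsta4* and ninth-hour calls of *Gstm1* and *Gsta4* (0.0570 to 0.128). The scanner's processed signals ended those of *Prdx1* at the first and *Gsta4* at the fifth hour (0.0533 and 0.0563), the deposited ratios those of *Cat* at the ninth and *Txnrd3* at the fifth (0.0558 and 0.0548), the log ratio test that of *Prdx5* (0.0522) and the mean of all probes that of *Gss* (0.760). The cause was not tested. Dim probes limit *Gpx5*, *Gpx6*, *Gsta2*, *Gstp3*, *Gstt4* and *Mgst2*.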
